A study of Mus musculus with 8 samples.

Results

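Astrocyte genes are described here in the striatum of knockout mice of the kinase gene Dclk3 and of their wild-type controls. The members are 34 named genes, taken as a list and found by symbol in the deposited table, which holds 31417 genes. All 34 were in the table, each under 1 Ensembl identifier, and all 34 were among the 16511 genes with enough counts to be tested. For the description they were divided by role into 9 transporters, channels and pumps, 8 metabolic enzymes, 3 reactive and intermediate filament genes, 7 receptors, signalling genes and transcription factors, and 7 secreted or extracellular proteins.

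RNA was sequenced from the whole striatum of 8 mice, 4 of genotype WT and 4 of genotype Dclk3 knock out, all 12 months old and 1 striatum per library. The labels give no strain, sex, treatment or construct, and neither the deleted part of Dclk3 nor the cells in which it was deleted is given in the sources used here. Levels are depth-scaled read counts (CPM), adjusted between libraries by edgeR's TMM factors, and fold changes are knockout over wild type. Dclk3 itself measured 95.2, 117, 80.9 and 86.1 CPM in the wild-type mice and 27.7, 19.6, 20.9 and 22.7 CPM in the knockouts (values of 4 are given from replicate 1 to replicate 4 throughout), so its expression followed the labels. Wild type was 4.18 times the knockout, and reads of Dclk3 remained in every knockout library. Depth ran from 24441242 to 37145559 counts per library, and 3 counts, the floor below which a level was not read, correspond to 0.0822 to 0.123 CPM. Markers of spiny neurons, the principal striatal neurons, were present in every library, with 14 of 14 tested and a summed level of 5707 to 6812 CPM in wild type and 5665 to 6477 CPM in the knockout. Knockout replicate 4 and wild-type replicates 2 and 4 stood apart in markers of neighbouring tissue. The cortical glutamate transporter gene Slc17a7 was highest in wild-type replicate 2, choroid plexus markers in wild-type replicate 4 and thalamic markers in knockout replicate 4. Knockout replicate 1 was not free of such markers. Its choroid plexus markers summed to 245 CPM, against 52.5 to 102 CPM in the other knockout libraries, and its level of the thalamic gene Tcf7l2 was exceeded only in knockout replicate 4.

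Astrocytes are glial cells that take up synaptic glutamate and potassium, turn glutamate into glutamine for neurons, store glycogen, and line blood vessels with endfeet rich in water channels. After injury or inflammation they become reactive, a state in which intermediate filament genes such as Gfap and Vim are typically raised. In the healthy striatum most astrocytes contain little GFAP protein, in contrast to those of white matter and of the ventricular wall. In bulk tissue, fewer cells of a type and less RNA per cell cannot be told apart.

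The upstream sequences of 5 members are shown for context. They were picked mostly by their values in these data, and none of them passed the test. Glul, Slc39a12 and Aldh1l1 were the members whose knockout libraries all lay above all wild-type libraries, Hes5 was the member furthest below 0, and Gfap is the classical reactive marker. The sequences are the RefSeq windows of 300 bases on GRCm38.p6, from 250 bases before to 50 bases after the transcript start, written 5′ to 3′ on the gene's own strand. They lie at chr1:153899679-153899978 (plus strand), chr2:14388148-14388447 (plus strand), chr6:90550543-90550842 (plus strand), chr4:154960673-154960972 (plus strand) and chr11:102897151-102897450 (minus strand). Capitals mark matches on either strand to TGGGAA, the core letters bound by the Notch partner RBPJ, to TTCNNNGAA, the spaced palindrome of STAT factors, and to ACAAAG, a core of SOX factors.
Glul: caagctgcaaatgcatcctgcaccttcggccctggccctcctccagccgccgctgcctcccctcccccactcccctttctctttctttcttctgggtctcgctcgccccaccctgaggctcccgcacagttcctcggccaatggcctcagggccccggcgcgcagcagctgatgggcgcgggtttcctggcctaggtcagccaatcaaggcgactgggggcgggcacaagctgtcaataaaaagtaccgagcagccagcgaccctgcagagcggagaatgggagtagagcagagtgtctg
Slc39a12: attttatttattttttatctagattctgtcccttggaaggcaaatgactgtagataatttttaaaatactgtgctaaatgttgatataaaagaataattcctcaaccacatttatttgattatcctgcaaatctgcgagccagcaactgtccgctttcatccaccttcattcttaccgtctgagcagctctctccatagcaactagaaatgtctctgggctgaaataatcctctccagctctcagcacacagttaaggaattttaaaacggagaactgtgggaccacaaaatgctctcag
Aldh1l1: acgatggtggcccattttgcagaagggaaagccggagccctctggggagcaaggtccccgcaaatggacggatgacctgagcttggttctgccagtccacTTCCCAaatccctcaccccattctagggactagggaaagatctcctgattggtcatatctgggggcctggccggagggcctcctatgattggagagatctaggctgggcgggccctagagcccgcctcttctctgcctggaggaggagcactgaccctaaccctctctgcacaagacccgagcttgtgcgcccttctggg
Hes5: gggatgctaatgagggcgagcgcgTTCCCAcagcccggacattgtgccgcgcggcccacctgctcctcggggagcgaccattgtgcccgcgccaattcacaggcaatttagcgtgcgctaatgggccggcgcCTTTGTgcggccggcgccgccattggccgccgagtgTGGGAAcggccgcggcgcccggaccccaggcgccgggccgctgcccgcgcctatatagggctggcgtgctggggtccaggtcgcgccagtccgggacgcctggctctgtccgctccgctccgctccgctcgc
Gfap: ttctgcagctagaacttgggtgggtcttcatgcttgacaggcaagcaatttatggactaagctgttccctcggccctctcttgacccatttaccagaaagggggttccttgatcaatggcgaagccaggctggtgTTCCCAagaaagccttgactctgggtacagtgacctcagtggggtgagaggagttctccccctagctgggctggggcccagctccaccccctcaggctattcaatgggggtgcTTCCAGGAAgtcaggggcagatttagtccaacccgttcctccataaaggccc
Hes5, a direct target of Notch signalling, held 2 matches to TGGGAA and 1 to ACAAAG, and had 41 CpG dinucleotides in its window. Gfap held 1 match to TGGGAA and 1 to TTCNNNGAA, with 3 CpG dinucleotides. Aldh1l1 held 1 match to TGGGAA, and neither Glul nor Slc39a12 held any of the 3 motifs in these letters.

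Windows were found for 28 of the 34 members, 34 windows in all because some genes have several starts. TGGGAA was in 12 of the 34 windows (35.3%) against 25.6% of all 32851 windows in the RefSeq table. TTCNNNGAA was in 7 windows (20.6%), 1 each of Slc1a3, Aldoc, Acsbg1, Prodh, Gfap, Ntsr2 and Agt, against 8.3% of all windows. ACAAAG was in 3 windows (8.82%), those of Prodh, Plcd4 and Hes5, against 18.7% of all. The motifs can share letters where they overlap, and a match describes the letters only. No window was found for Aqp4, Atp1b2, Sox9, Crym, Clu and Sparcl1.

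Most astrocyte genes lay slightly higher in the knockout, and none passed the test. Of the 34 members 27 had a log2 fold change above 0 and 7 below, with a median of 0.15, while 49.5% of all genes tested were above 0 and their median was -0.0011. By the quasi-likelihood test of edgeR, adjusted over all genes by Benjamini-Hochberg, 0 of the 34 members passed an adjusted p of 0.05, and every member had an adjusted p of 0.999. The background was 1 gene of 16511, or 0.00606%, and that gene was Dclk3. At an unadjusted p under 0.05 there were 13 members higher in the knockout, where 1.96% of all genes tested reached that level, and 1 lower, Hes5, against 1.79%. The members were listed with earlier results of these data known, and many of them were high or low in the same libraries. The counts over the members are therefore a description only. The DESeq2 Wald test and limma-voom also called 0 members.

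The knockout libraries did not all contribute equally. For each library the deviation of every member from its mean over the 8 libraries was taken on the log2 scale, and the median over the 34 members was 0.019, -0.12, -0.042 and -0.13 for the wild-type mice and 0.12, -0.0092, 0.036 and 0.17 for the knockouts. Wild-type replicate 1 thus lay above knockout replicate 2, and the groups overlapped. The lowest values were those of wild-type replicates 2 and 4 and the highest that of knockout replicate 4, the same 3 libraries that stood apart in markers of neighbouring tissue. With those 3 libraries left out, 24 of the 34 members were above 0 and the median was 0.036. They were chosen after seeing the data, partly from their levels of the members Gfap and Agt, and they held the extremes of the median over the members. A lower fold change without them therefore follows from the choice, and the value is given as a description only. With any single library left out the median was 0.11 to 0.19. The 34 genes together summed to 15818, 14289, 14668 and 14483 CPM in the wild-type mice and to 16941, 15638, 15837 and 17052 CPM in the knockouts, each in the order of the replicates.

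**Figure D1:**
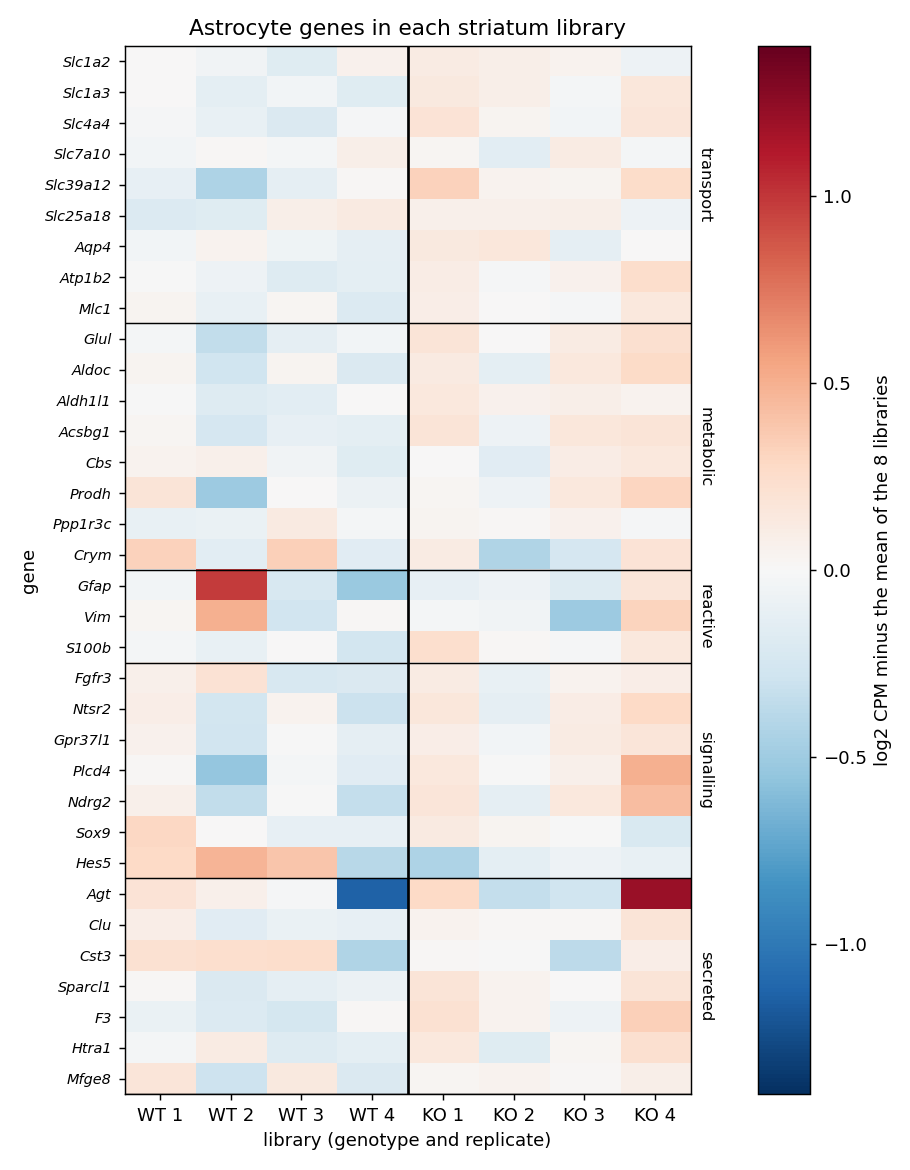
Heat map of the 34 astrocyte genes (vertical axis, by class) in the 8 libraries (horizontal axis); the colour gives log2 CPM minus the gene's mean over the 8 libraries. Gfap is highest in wild-type replicate 2 (385 CPM) and Agt in knockout replicate 4 (59.2 CPM), and few other members reach such strong colours.

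Levels differed widely between the members. Compared per kilobase of exonic length, the most abundant were Cst3, the secreted protease inhibitor cystatin C, at 689 CPM per kilobase, Sparcl1, the matrix protein hevin, at 666, and Glul, glutamine synthetase, at 551. The glutamate transporter Slc1a2 (326), the glycolytic enzyme Aldoc (323), Ndrg2 (307) and the chaperone Clu (237) followed, all as means of the 8 libraries on the same scale. These 7 genes were above the 99th percentile of all genes tested. The least abundant were Plcd4, a phospholipase C, at 2.65 CPM per kilobase, Prodh, proline dehydrogenase, at 3.45, and Cbs, cystathionine beta-synthase, at 4.25. Gfap, at 48.7 CPM per kilobase, stood at the 95.3 percentile, below S100b at 123.

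**Figure D2:**
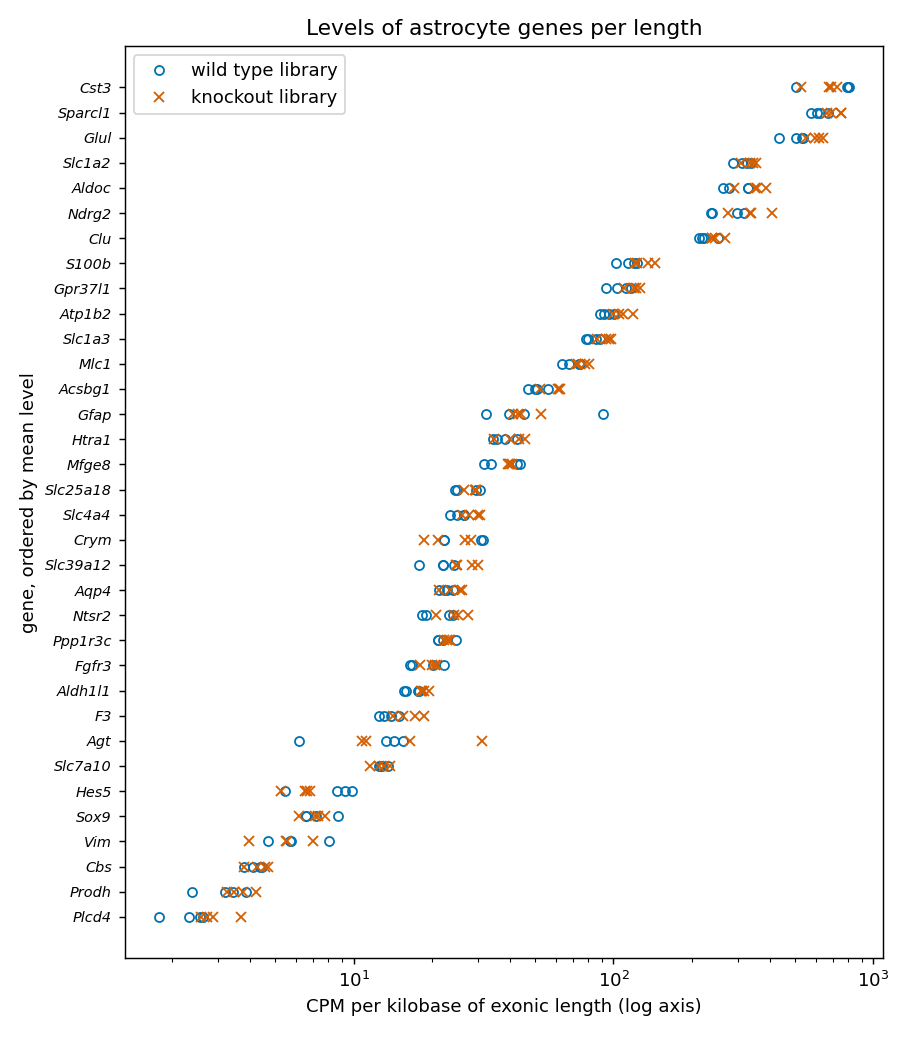
Level of each astrocyte gene (vertical axis, ordered by mean) as CPM per kilobase of exonic length on a log axis; circles are the 4 wild-type libraries and crosses the 4 knockout libraries. Cst3, Sparcl1 and Glul have the highest means, and single points far from the rest are seen for Gfap in wild type and Agt in the knockout.

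Of the transport genes 8 of 9 were above 0 on the log2 scale. Their median was 0.12 and 0 passed the threshold. The zinc transporter gene Slc39a12 (ENSMUSG00000036949, plus strand of chr2:14388316-14494977 in GRCm38) measured 66.4, 53.4, 66.0 and 72.9 CPM in the wild-type mice and 90.2, 74.6, 74.4 and 85.9 CPM in the knockouts. The groups did not overlap, but knockout replicates 2 and 3 lay only just above wild-type replicate 4. Its log2 fold change was 0.33 (SE 0.10, 95% interval 0.12 to 0.54), with an unadjusted p of 0.00529 and an adjusted p of 0.999 (edgeR quasi-likelihood).

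Both glutamate transporters, which clear glutamate from the synapse, lay slightly above their wild-type level in the mean. Slc1a2, encoding GLT-1, measured 4281, 4114, 3782 and 4433 CPM in the wild-type mice and 4636, 4501, 4402 and 4054 CPM in the knockouts. Slc1a3, encoding GLAST, measured 755, 682, 733 and 667 CPM in wild type and 823, 796, 735 and 838 CPM in the knockout. The groups overlapped for both genes. Their log2 fold changes were 0.08 (95% interval -0.06 to 0.23) and 0.17 (0.03 to 0.31), so a difference of 1.5-fold in either direction lies outside both intervals. For Slc1a3 the unadjusted p was 0.023 and the adjusted p 0.999 (edgeR quasi-likelihood).

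Atp1b2, the glial beta subunit of the sodium pump, was at 410.3, 391, 364 and 374 CPM in wild type and 443, 407, 428 and 487 CPM in the knockout, and its log2 fold change was 0.20 (SE 0.07). Only knockout replicate 2 lay below the highest wild-type library. Slc4a4, the sodium bicarbonate cotransporter, had 0.18 (SE 0.07) between means of 275 and 311 CPM. The endfoot genes Aqp4, the water channel, and Mlc1, a membrane protein of the same contacts, had 0.09 and 0.12, with 133 to 150.1 CPM in wild type and 133 to 163 CPM in the knockout for Aqp4. The mitochondrial glutamate carrier gene Slc25a18 had 0.07. Slc7a10, which exchanges serine and other small neutral amino acids, was the exception below 0 at -0.02 (95% interval -0.17 to 0.13). The 95% interval lay within 1.5-fold in either direction for all 9 transport genes, compared with 77.8% of all genes tested.

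Metabolic enzymes were above 0 in 7 of 8 genes with a median of 0.18, again with 0 past the threshold. Glul (ENSMUSG00000026473, plus strand of chr1:153899944-153909723), which converts glutamate and ammonia to glutamine, measured 1779, 1436, 1671 and 1765 CPM in the wild-type mice. In the knockouts it measured 2059, 1829, 1975 and 2124 CPM. The groups did not overlap, and the gap between the highest wild-type and the lowest knockout library was small against the spread within each genotype. The means were 1663 CPM ± 159 and 1997 CPM ± 128 (SD, n = 4 each). On the log2 scale the knockout was 0.26 above wild type (SE 0.08, 95% interval 0.09 to 0.43), with an unadjusted p of 0.00523 by edgeR.

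Aldh1l1 (ENSMUSG00000030088, plus strand of chr6:90486427-90600203), a folate enzyme used as a general astrocyte marker, measured 79.9, 70.5, 72.0 and 80.5 CPM in wild type and 88.3, 83.1, 84.5 and 82.4 CPM in the knockout. It too had no overlap between the genotypes, with a log2 fold change of 0.16 (SE 0.06, 95% interval 0.03 to 0.29). Of the 34 members, 3 had all knockout libraries above all wild-type libraries and 0 had all below, where the shares of all genes tested were 1.07% and 0.86%. This count, too, describes a list chosen with earlier results known. Acsbg1, which activates long-chain fatty acids, had a log2 fold change of 0.22 (SE 0.07) between 183 and 214 CPM. Aldoc, the aldolase of astrocytes, measured 1071, 859.7, 1073 and 907 CPM in wild type and 1144, 952, 1159 and 1256 CPM in the knockout. Wild-type replicate 2 was the lowest and knockout replicate 4 the highest, and the 95% interval of its log2 fold change of 0.21 included 0.

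Prodh, which breaks down proline, was at 18.6 to 30.0 CPM in wild type and 25.4 to 32.8 CPM in the knockout (log2 fold change 0.19). Ppp1r3c, a subunit that targets phosphatase to glycogen, and Cbs, which makes cystathionine from homocysteine, had 0.05 each. Crym was the enzyme below 0. It encodes mu-crystallin, which binds thyroid hormone, and among astrocytes is known as a marker of a striatal population, while some neurons also contain it. Its level was 105, 75.9, 106 and 75.4 CPM in wild type and 91.4, 63.2, 71.8 and 96.0 CPM in the knockout, with a log2 fold change of -0.17 (95% interval -0.56 to 0.23). Each genotype held a pair of libraries between 91.4 and 106 CPM and a pair between 63.2 and 75.9 CPM, so the groups overlapped.

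Reactive genes did not share a direction. Gfap (ENSMUSG00000020932, minus strand of chr11:102887336-102900912), the intermediate filament of astrocytes, measured 192, 385, 168 and 137 CPM in the wild-type mice and 181, 187, 173 and 221 CPM in the knockouts. The wild-type libraries spanned the whole range, and the 4 knockout libraries lay between them. The means were 220.2 CPM ± 112 and 191 CPM ± 21.2 (SD, n = 4 each). The log2 fold change was -0.21 (SE 0.33), with a 95% interval of -0.99 to 0.57. Of the 3 reactive genes only S100b had an interval within 1.5-fold in either direction. Without wild-type replicate 2 the log2 fold change of Gfap was 0.21.

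Vim, vimentin, a filament protein also made by endothelial, ependymal and other cells, measured 27.3, 38.0, 22.3 and 27.1 CPM in wild type and 26.4, 26.0, 18.9 and 33.2 CPM in the knockout. Wild-type replicate 2 was again highest, and the log2 fold change of -0.14 became 0.026 without it. S100b, a calcium-binding protein of astrocytes and oligodendrocytes, went the other way with 0.19 (SE 0.08), at 179, 169, 182 and 152 CPM in wild type and 214, 183, 179 and 201 CPM in the knockout. The median of these 3 genes was -0.14 in all 8 libraries and 0.19 without wild-type replicate 2. Whether the reactive genes differ from the transport and metabolic genes in their response was not tested.

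The wider list of reactive astrocyte genes, which holds none of the 34 members, gave 20 of 33 tested genes above 0 and a median of 0.064, with 0 past the threshold. At an unadjusted p under 0.05 (edgeR quasi-likelihood) 1 of the 33 was higher in the knockout and 0 were lower. Of all genes tested, 1.96% were higher and 1.79% lower at that level, so 1 gene in such a list is near the background. That gene was Ggta1, a galactosyltransferase of the neuroinflammatory set, at 6.68 to 7.87 CPM in wild type and 8.02 to 8.69 CPM in the knockout. Srgn, a proteoglycan that microglia and vessels also make, had a log2 fold change of 0.18, Synm, a filament protein, 0.17, and Steap4, a metalloreductase near the low end of the levels tested, -0.80. Steap4 was at 1.75 CPM in wild-type replicate 4 and at 0.375 to 0.702 CPM in the other wild-type libraries, and without replicate 4 its log2 fold change was -0.10. Synm was 0.25 without the same library. The listed level of the whole set was 341.9 to 410.7 CPM in wild type and 371.8 to 444.6 CPM in the knockout. Lcn2, Timp1, Cxcl10, Tgm1, Ptx3 and Slc10a6 were not tested, because too few libraries held enough counts of them. Lcn2, a gene named after its values were seen, encodes the acute-phase protein lipocalin 2 and is a strong marker of reactive astrocytes. It was at 6.28 CPM in knockout replicate 4 and at no more than 0.205 CPM in the other 7 libraries. In wild-type replicate 3 and knockout replicate 3 it lay under the floor of 3 counts.

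Receptors, signalling genes and transcription factors were above 0 in 5 of 7 genes, with a median of 0.17 and 0 past the threshold. Ndrg2, an abundant cytoplasmic protein of astrocytes, measured 1077, 806, 1019 and 813 CPM in wild type and 1150.4, 939.6, 1138 and 1388 CPM in the knockout. Knockout replicate 4 was highest and wild-type replicates 2 and 4 were lowest. Its log2 fold change of 0.31 (SE 0.13) ranged from 0.21 to 0.40 with any single library left out, and was lowest without knockout replicate 4. Plcd4 measured 18.5, 12.6, 18.0 and 16.4 CPM in wild type and 20.3, 18.2, 19.3 and 25.9 CPM in the knockout, with the same libraries at the ends, and its log2 fold change of 0.36 (SE 0.14) ranged from 0.24 to 0.42 with any single library left out.

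Of the receptors, Gpr37l1, an orphan receptor of glia, had a log2 fold change of 0.17 (SE 0.08) between 241 and 271 CPM, and Ntsr2, the low-affinity neurotensin receptor, 0.20 (SE 0.11). Fgfr3, a fibroblast growth factor receptor of astrocytes, had 0.07. Sox9, the transcription factor that specifies the astrocyte lineage and marks astrocyte nuclei, stayed within 27.2 to 36.0 CPM in wild type and 25.5 to 32.1 CPM in the knockout, with a log2 fold change of -0.03 (95% interval -0.25 to 0.18). Hes5 (ENSMUSG00000048001, plus strand of chr4:154960923-154962371), a Notch-induced repressor of astrocytes and progenitors, measured 11.8, 13.5, 12.7 and 7.43 CPM in wild type and 7.18, 8.87, 9.23 and 9.05 CPM in the knockout. Wild-type replicate 4 lay among the knockout libraries, and the other 3 wild-type libraries lay above all of them. Hes5 was thus at -0.40 on the log2 scale (SE 0.17, 95% interval -0.77 to -0.03), with an unadjusted p of 0.0383 and an adjusted p of 0.999 (edgeR quasi-likelihood).

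Secreted and extracellular proteins were above 0 in 6 of 7 genes with a median of 0.13 and 0 past the threshold. Sparcl1, which promotes synapse formation, measured 1964, 1687, 1779.7 and 1834 CPM in wild type and 2199, 2022, 1948 and 2209 CPM in the knockout, and its log2 fold change was 0.21 (SE 0.07). F3, tissue factor, the initiator of coagulation, had 0.26 (SE 0.09) between means of 34.5 and 41.4 CPM. For both genes knockout replicate 3 was the only knockout library below the highest wild-type one. Clu had 0.13, the serine protease gene Htra1 0.11 and Mfge8, which bridges dying cells to phagocytes, 0.07.

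Agt and Cst3 varied widely between mice of a genotype. Agt (ENSMUSG00000031980, minus strand of chr8:124556534-124569706), angiotensinogen, measured 29.4, 27.0, 25.3 and 11.7 CPM in wild type and 31.2, 20.4, 21.2 and 59.2 CPM in the knockout. Its largest level was 5.06 times its smallest, the widest range of the 34 members, and its log2 fold change of 0.50 (95% interval -0.58 to 1.58) was 0.055 without knockout replicate 4. Cst3 measured 1000.5, 1011, 1019 and 640.0 CPM in wild type and 869.5, 855, 665 and 918 CPM in the knockout. Wild-type replicate 4 lay far below the other wild-type libraries, and the log2 fold change of -0.15 was -0.29 without it. Cst3 is also strongly expressed by microglia, so its counts are not those of astrocytes alone.

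**Figure D3:**
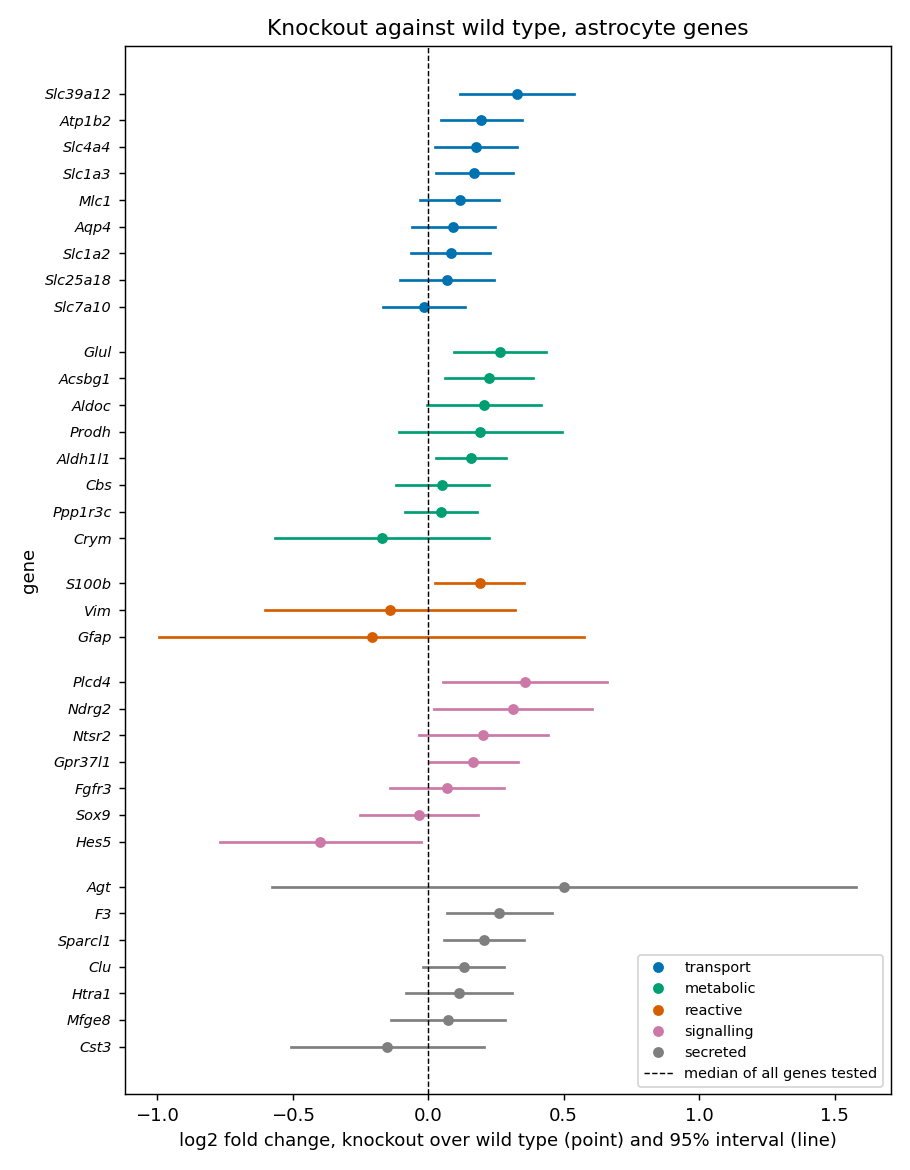
Log2 fold change of each astrocyte gene, knockout over wild type (points), with its 95% interval (lines), coloured by class; the dashed line is the median of all 16511 genes tested. Agt, Gfap, Vim, Crym and Hes5 have the widest intervals, and those of all 9 transport genes lie within 1.5-fold in either direction.

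The classes differed in how much their genes varied within a genotype. The SD of log2 CPM within a genotype had a median of 0.094 over the transport genes, 0.12 over metabolic enzymes, 0.15 over secreted proteins, 0.19 over receptors and signalling genes and 0.33 over the reactive genes. The median over all genes tested was 0.14, on the same scale. The reactive class holds only 3 genes, of which S100b was at 0.12. Gfap measured 385 CPM in wild-type replicate 2, against 137 to 192 CPM in the other wild-type libraries. Agt (0.66), Gfap (0.47), Vim (0.33), Hes5 (0.30) and Crym (0.28) had the largest values of the members, and Aldh1l1 (0.077) and Ppp1r3c (0.078) the smallest. These are descriptions of 8 mice, and the differences between classes were not tested.

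Markers of tissue that borders the striatum had their extremes in some of the same libraries as several of these genes. Slc17a7, the vesicular glutamate transporter of cortical neurons, measured 736, 1159, 889.6 and 895 CPM in the wild-type mice and 629, 882, 802 and 545 CPM in the knockouts. Wild-type replicate 2, the library with the most Gfap and Vim and low metabolic genes, had the most Slc17a7, and knockout replicate 4, with the highest median over the astrocyte genes, had the least. Gfap did not follow Slc17a7 in every library. It was at 221 CPM in knockout replicate 4, where Slc17a7 was lowest, and at 137 CPM in wild-type replicate 4, where Slc17a7 was at 895 CPM. Tcf7l2, a thalamic transcription factor gene named after its values were seen, measured 6.87, 7.83, 6.1 and 3.76 CPM in wild type and 12.8, 4.34, 4.34 and 17.3 CPM in the knockout. Agt was highest in the same 2 libraries, knockout replicates 4 and 1, and lowest in wild-type replicate 4, as was Tcf7l2. Of the 12 thalamic and cortical markers 6 were above 0 and 6 below, with a summed level of 1162 to 1697 CPM in wild type and 1155 to 1355 CPM in the knockout. Rora, another thalamic gene, was at 0.24 on the log2 scale, and the cortical genes Cux2 and Neurod6 had -0.18 and -0.22. Without knockout replicate 4 Rora was 0.12 and Neurod6 -0.12. The part of such tissue in the astrocyte values was not tested.

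Of the other non-neuronal marker lists, those of oligodendrocytes and endothelium had medians above that of the astrocyte genes, and those of microglia, oligodendrocyte precursors and mural cells had medians below it. Oligodendrocyte markers were above 0 in 12 of 12 genes with a median of 0.19, and their summed level was 7864 to 10681 CPM in wild type and 9531 to 11316 CPM in the knockout, lowest in wild-type replicate 2 and highest in knockout replicate 4. The myelin genes Mobp (0.31), Ermn (0.24) and Mog (0.22) were among those with the smallest p, and Mog was 0.13 without wild-type replicate 2. Endothelial markers had 9 of 10 above 0 and a median of 0.22, with Slco1a4 at 0.27, Abcb1a at 0.37, Pecam1 at 0.21 and Ly6c1 at 0.43, and summed levels of 305.7 to 408 CPM in wild type and 371.3 to 491 CPM in the knockout. Ly6c1 was at 28.9 CPM in knockout replicate 4 and at no more than 17.2 CPM in the other knockout libraries, and without that library its log2 fold change was 0.17. Abcb1a was 0.23 without wild-type replicate 3. Microglia markers had 11 of 11 above 0 and a median of 0.084, with C1qa at 0.18 and Tmem119 at 0.11, and summed levels of 658 to 767 CPM in wild type and 701 to 846 CPM in the knockout. C1qa was 0.072 without knockout replicate 4, and Tmem119 0.069 without wild-type replicate 4. Mural and fibroblast markers, with Vtn at 0.22 and Rgs5 at 0.17, had 5 of 10 above 0 and a median of 0.013, at 275.6 to 344 CPM and 313 to 348 CPM. Oligodendrocyte precursor markers, led by Vcan and Pdgfra at 0.07 and 0.06, had a median of 0.051, at 194.7 to 241 CPM and 198 to 264 CPM. With any single library left out, Vcan ranged from 0.007 to 0.14 and Pdgfra from -0.019 to 0.12. Spiny neuron markers had a median of 0.027, with 10 of 14 above 0, Bcl11b at -0.14 and Tac1 at 0.16 (0.24 without wild-type replicate 1). No marker of these lists was without counts, 0 passed the threshold, and their part in the astrocyte values was not tested.

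Cells of the ventricle wall, which also contain Gfap, Vim, Hes5 and Sox9, were represented at low levels. Ependymal markers had 11 of 12 below 0 and a median of -0.17, with Tekt1 at -0.53 and Dynlrb2 at -0.58. Their summed level was 38.5 to 45.5 CPM in wild type and 30.9 to 42.4 CPM in the knockout, so the groups overlapped. Several of the 12 changed sign when a single library was left out. The median deviation over the list was highest in wild-type replicate 4 (0.35) and lowest in knockout replicate 3 (-0.36). Dynlrb2 was at 2.52 CPM in wild-type replicate 4 and at 1.09 to 1.39 CPM in the other wild-type libraries, and without that library its log2 fold change was -0.23. Wild-type replicate 2, where Gfap was highest, had the lowest summed ependymal level of the wild-type libraries. Progenitor and neuroblast markers had 8 of 12 below 0 and a median of -0.037, with summed levels of 92.4 to 98.7 CPM in wild type and 85.9 to 104.6 CPM in the knockout. Cdk1 at -0.74 and Sp8 at 0.34 were both scarce. Cdk1 had 0.365 to 0.714 CPM in wild type and 0.219 to 0.345 CPM in the knockout, and Sp8 0.918 to 1.29 CPM and 0.977 to 1.80 CPM. Choroid plexus markers summed to 40.8, 68.2 and 91.0 CPM in 3 wild-type libraries and to 2947 CPM in wild-type replicate 4, against 52.5 to 245 CPM in the knockout, with Ttr alone at 2717 CPM in wild-type replicate 4. That library also had the lowest Cst3, Agt and Gfap. In these 3 lists 0 members passed the threshold, and 0 had no count at all.

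**Figure D4:**
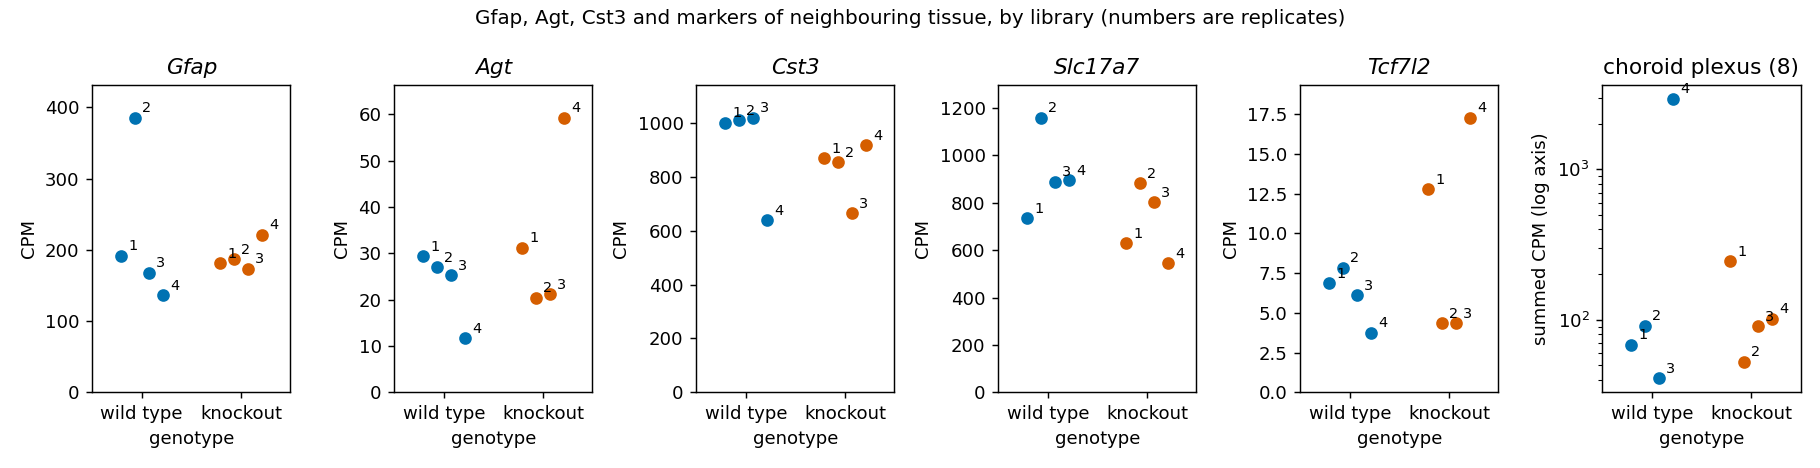
CPM in each library (points, numbered by replicate) of Gfap, Agt and Cst3, of the cortical marker Slc17a7 and the thalamic marker Tcf7l2, and the summed CPM of 8 choroid plexus markers on a log axis, by genotype. Gfap and Slc17a7 are highest in wild-type replicate 2, Agt and Tcf7l2 in knockout replicate 4, and choroid plexus markers in wild-type replicate 4.

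Astrocyte-enriched genes outside the 34 members were also mostly above 0. Of 36 such genes 29 were above 0, with a median of 0.085, and 0 passed the threshold. Gjb6, the gap junction protein connexin 30, had the smallest p among them, at 40.5, 35.4, 38.1 and 40.0 CPM in wild type and 53.3, 42.0, 49.2 and 60.0 CPM in the knockout, with a log2 fold change of 0.41. Kcnj10, the potassium channel Kir4.1, had 0.19 and Pla2g7, a secreted phospholipase, 0.22, both with overlapping groups. The summed level of all 36 genes was 5324 to 5930 CPM in wild type and 5676 to 6240 CPM in the knockout.

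Genes of the glutamate and glutamine cycle and of astrocyte energy metabolism, apart from the members, had 19 of 28 above 0 and a median of 0.067. None of the 28 passed the threshold. At an unadjusted p under 0.05 (edgeR quasi-likelihood) 1 of the 28 was higher in the knockout and 0 were lower. The shares of all genes tested were 1.96% and 1.79%, so this count too is near the background. The gene was Pygm, a glycogen phosphorylase, with a log2 fold change of 0.24 between 34.4 to 40.6 CPM in wild type and 38.0 to 46.0 CPM in the knockout. Pygb, the brain form of the same enzyme, had 0.15, the glycine transporter gene Slc6a9 0.17 and the lactate dehydrogenase gene Ldha -0.13. Pygb was 0.071 without wild-type replicate 2, and Slc6a9 0.071 without knockout replicate 4. Their summed level was 3423 to 3646 CPM in wild type and 3536 to 3620 CPM in the knockout, so the groups overlapped.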

How the data were processed

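Striatal RNA of 8 mice was analysed from a single table of unnormalized counts for 31417 Ensembl genes, deposited by the authors with a raw count column for each library. Per the labels' protocols, poly(A) RNA was made into stranded libraries, and the submitters' processing notes name bcl2fastq 2.17.1.14 and the build mm10. For the aligner, the counter and the strand setting nothing is given in the sources used here. Symbols, positions and exonic lengths came from GENCODE on GRCm38. Exons of 8 members overlap those of another gene, those of Glul and Aldh1l1 on the same strand and those of Slc1a2, Slc7a10, Slc25a18, Fgfr3, Plcd4 and Hes5 on the opposite strand only, so reads could be shared.

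Counts were fitted in R 4.3.3 with edgeR 4.0.16 (filterByExpr with a minimum count of 10, TMM, robust quasi-likelihood test, genotype as the only term), with Benjamini-Hochberg adjustment over 16511 genes and a threshold of 0.05. Intervals are 95% intervals from the quasi-likelihood statistic. In simulated data of 16359 genes, 100 genes were changed at each fold and counts were drawn independently for each gene. There the test recovered 59% of 1.5-fold and 84% of 2-fold changes, and 6.54% of its calls were false at the threshold of 0.05. The simulation made 153 calls and held no shifts shared by many genes. These shares therefore do not give the chance of a call in the real data, where 1 gene was called. The floor of 3 counts covers counting error only. Alternatives used DESeq2 1.42.0, limma 3.58.1, other scalings and filters, a replicate block and left-out libraries. Members and lists were chosen with earlier results of these data known. Named are all members, Dclk3 and, per other list, up to 4 genes with the smallest p; other names are said to be chosen after their values were seen. A few genes under this rule are not reported here.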

Additional observations from a re-analysis of the deposited data

Results flagged for a closer look

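Among 70 groups of 4 libraries (34 members and Dclk3 in each genotype), 3 held a library whose gap to its nearest neighbour exceeded Dixon's 95% critical share of the group's range. Chance flags about 1 in 20 such groups. Cst3 was at 640.0 CPM in wild-type replicate 4, while the other wild-type libraries had 1000.5 to 1019 CPM. Slc25a18 was at 50.8 CPM in knockout replicate 4, against 56.3 to 56.4 CPM in the other knockout libraries. Acsbg1 was at 189 CPM in knockout replicate 2, and the other knockout libraries had 221 to 225 CPM.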

How the results depend on the processing

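Over 17 alternative settings 0 members passed the threshold in any, between 24 and 28 of the 34 members were above 0, and 24 members kept their sign in every setting. The median log2 fold change of the members was 0.11 to 0.19 when any single library was left out, 0.098 without replicate 4 of both genotypes, and 0.036 without wild-type replicates 2 and 4 and knockout replicate 4. That last setting was added after seeing the data, the members Gfap and Agt included, and its lower median follows from the choice of libraries. The number of genes called in all was 1 in the main fit, 3 with the DESeq2 Wald test, 1 to 2 with any single library left out, 3 without replicate 4 of both genotypes and 13 without the 3 libraries. Without the filter on low counts the 1 call was Malat1 in place of Dclk3. The replicate numbers did not pair the mice (correlations of -0.28 to 0.053 between same-numbered libraries, and 1 of 4 matched its own number best); with the replicate block the count of calls was 1, with 27 members above 0 and a median of 0.15.

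Changes of sign were found for 10 members. With any single library left out, Sox9 ranged from -0.079 to 0.065, Gfap from -0.38 to 0.21, Vim from -0.28 to 0.026, Mfge8 from -0.0033 to 0.15 and Slc7a10 from -0.06 to 0.029. The signs of Gfap, Vim and Mfge8 turned without wild-type replicate 2, that of Sox9 when wild-type replicate 1 or knockout replicate 4 was omitted, and that of Slc7a10 when wild-type replicate 4 or knockout replicate 2 was. Without replicate 4 of both genotypes Slc7a10 was 0.018, Cbs -0.033, Fgfr3 -0.003 and Agt -0.17. Without the 3 libraries Slc7a10 was 0.033, Cbs -0.0084, Prodh -0.056, Gfap 0.0064, Ntsr2 -0.022, Agt -0.18 and Mfge8 -0.12. The cause was not tested.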
